A study of Mus musculus with 2 samples.

Results

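Distal nephron precursors, the cells of the early nephron that go on to form the loop of Henle and the distal tubule, were examined in whole kidneys of newborn mice. They were chosen by their transcripts, counted as unique molecular identifiers (UMIs, each marking 1 captured transcript). A member held at least 1 UMI of Irx1 and at least 1 UMI of 2 or more of the 7 partner genes Cxcl14, Tfap2b, Sim1, Sfrp2, Fgf8, Wfdc2 and Epcam. It held no UMI of Umod, Slc12a3 or Aqp2, at most 1 UMI of Slc12a1, and a doublet score of 1 or less in the authors' table of cells. The rule took 102 of 9071 cells of the control library and 76 of 5494 cells of the exposed library, 178 of 14565 in all. Levels of the 12 genes of the rule are given as a description.

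The 2 libraries came from whole kidneys of male C57BL/6J mice at postnatal day 2, when nephrons are still forming. 1 library came from controls and 1 from pups of diabetic mothers, called exposed here, and the sources say nothing on how the diabetes arose. The labels speak of pooled cells and of 1 kidney per group, so the number of animals behind a library is not settled. With 1 library per group no difference between groups could be tested, and exposure, animal and library cannot be told apart.

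In the mouse, nephron progenitors condense into a renal vesicle, which lengthens into an S-shaped body before the segments mature. The end next to the ureteric tip becomes the distal nephron, the middle and lower parts become loop, proximal tubule and glomerulus. Irx1 and Irx2 encode Iroquois homeodomain factors of the intermediate and distal segments, Fgf8 a growth factor that young nephrons need to survive, Lhx1 a factor needed to leave the vesicle stage, and Pou3f3 a factor needed for the loop of Henle and distal tubule.

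Members held a median of 4633.5 UMIs in the control library (1268 to 27056) and 5654 among exposed cells (1547 to 32195). Over the 8930 genes listed for both libraries they summed to 577596 and 540171 UMIs, the totals to which the levels below were scaled as CPM. Mitochondrial transcripts made up a median of 5.82% and 4.88% of a member's UMIs, and 6 control members and 1 exposed member exceeded 25%. Of the barcodes, 14 occurred in both libraries, and 0 of these were members. In each library 1 cluster of the authors held nearly all members, 94 of 102 and 74 of 76.

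Irx1 was the narrow gate of the rule. It was detected in 531 control and 348 exposed cells, and 456 and 317 of these held 2 or more partner genes. Most were then set aside for transcripts of a later segment: Umod, the uromodulin of the thick ascending limb, was detected in 241 and 188 of them, and the sodium-potassium-chloride carrier Slc12a1 stood at 2 or more UMIs in 226 and 159. Before the doublet score was applied, 121 and 83 cells were left. Just inside the limits, 45 and 35 members had a single Irx1 UMI, 28 and 21 had exactly 2 partner genes, and 6 and 5 had 1 Slc12a1 UMI. Just outside, 31 and 17 cells had Irx1 but only 1 partner gene, and 16 and 6 had 2 or 3 Slc12a1 UMIs. A further 1242 and 871 cells had 2 or more partner genes and no Irx1 UMI.

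Among the partner genes, the broad epithelial genes were found in nearly every member and the patterning genes in a minority. Epcam, an epithelial adhesion molecule, was detected in 91.2% of control and 97.4% of exposed members, and Wfdc2, a secreted protease inhibitor of tubular epithelium, in 92.2% and 89.5%. Sfrp2, a secreted Wnt modulator, was detected in 60.8% and 64.5%. Sim1, a bHLH-PAS transcription factor, was detected in 36.3% and 42.1%. Tfap2b, a transcription factor needed for the distal convoluted tubule, was detected in 29.4% and 22.4%, Fgf8 in 25.5% and 23.7%, and the chemokine Cxcl14 in 15.7% and 17.1%. Depth lowered these shares: in cells thinned to 2000 UMIs each (94 control and 75 exposed members), Sfrp2 was detected in 38.3% and 42.7%, Tfap2b in 17.0% and 12%, and Cxcl14 in 4.26% and 10.7%. In endothelial reference cells, which should lack the nephron genes and held medians of 2610.5 and 3250 UMIs, Sfrp2 was detected in 2.11% and 3.01% of cells, Wfdc2 in 5.59% and 2.80%, and Cxcl14 in 0.453% and 0 of 465, which allows up to 0.645% (3 cells). Members had to hold 2 or more partner genes and were deeper than the reference cells, so these shares are a description of the rule.

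**Figure D1:**
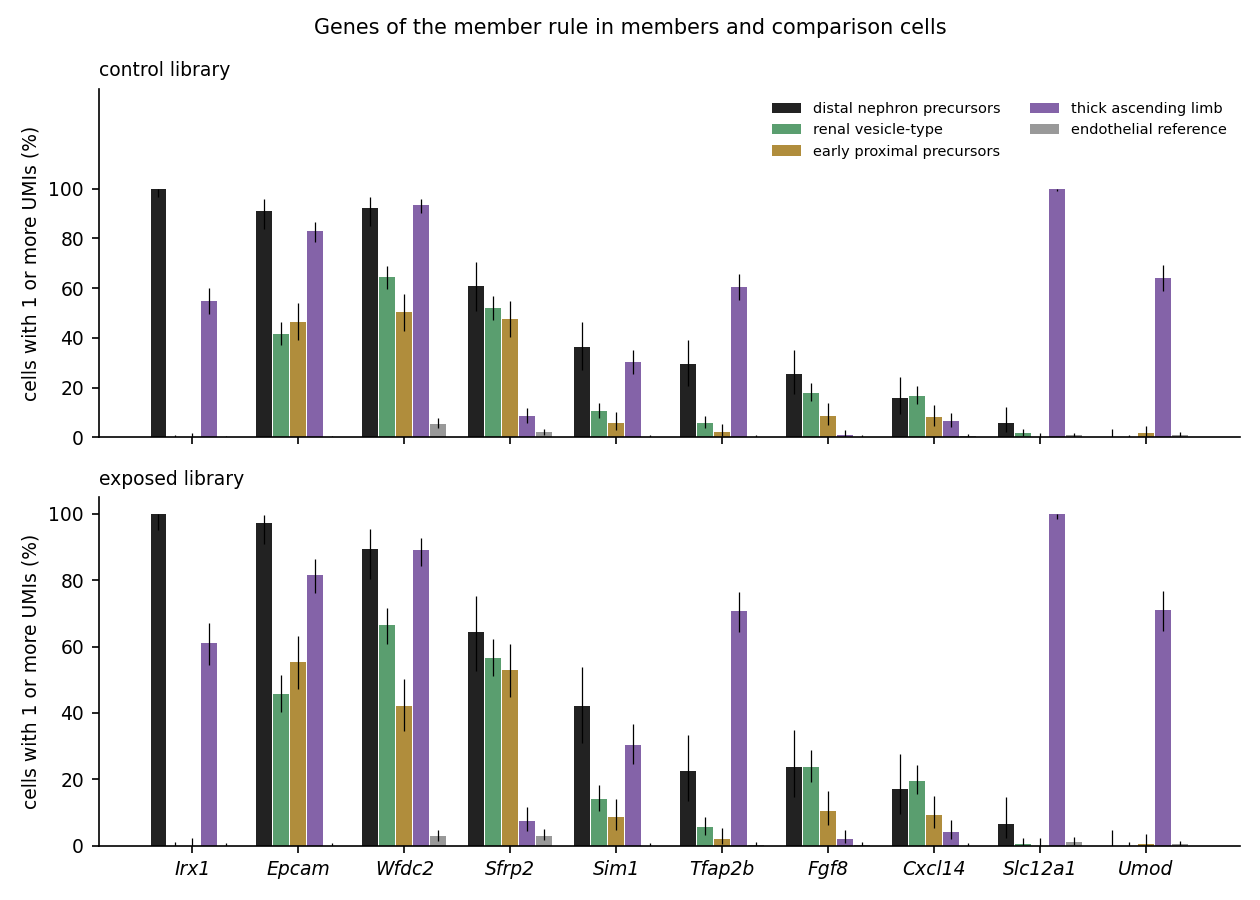
Percent of cells with 1 or more UMIs of 10 genes of the member rule (vertical axis) in the members and in 4 comparison sets, for the control library (upper panel) and the exposed library (lower panel). Bars are unthinned shares and lines are 95% Clopper-Pearson intervals; Irx1 stands at 100% and Umod at 0 in the members by the rule, while Epcam reached 91.2% and 97.4% of members and Cxcl14 15.7% and 17.1%.

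Cxcl14 and Fgf8 were often found in the same members. Of the 16 control members with Cxcl14, 10 held Fgf8 (62.5%), against 18.6% of the members without Cxcl14. In the exposed library 9 of 13 held Fgf8 (69.2%), against 14.3%. Mecom, a zinc-finger transcription factor, was detected in 70% of control members with Tfap2b and 25% of those without, and in 47.1% and 22% in the exposed library. Pou3f3 was detected in 56.8% of control members with Sim1 and 26.2% of those without, and in 65.6% and 45.5% in the exposed library. These pairs were picked after their values were seen, and members differed in depth.

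The label held for most members but not for all. A group of 10 control members (9.80%, 4.80 to 17.3, 95% Clopper-Pearson interval) and 7 exposed members (9.21%, 3.78 to 18.1) carried the transcripts of proximal tubule cells. They were set apart, after the data had been seen, by 10 or more summed UMIs of 5 proximal genes, among them Fbp1 (glucose synthesis), Slc34a1 (phosphate uptake), Pdzk1 (a brush border scaffold) and Ass1 (arginine synthesis). Their medians were 28.5 and 22 UMIs of these genes, with maxima of 131 and 213. The other 92 control members held at most 3 such UMIs and the other 69 exposed members at most 8.

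These proximal-gene cells also differed in genes that did not set them apart. Lrp2, the endocytic receptor megalin, stood at 1366 CPM in the 10 control cells and at 6.39 CPM in the other 92 members, and at 868 and 16.9 CPM in the exposed library. Hnf4a, a regulator of proximal identity, stood at 295 against 6.39 CPM and at 268 against 12.1 CPM. The androgen-regulated proximal gene Kap had 191 and 27 UMIs in them and 0 in all other members. The reverse held for some distal genes but not for all. Sox9, Mecom and Sim2 had 0 UMIs in the proximal-gene cells of either library, while the other members held 47 and 54, 66 and 47, and 44 and 34 UMIs. Pou3f3 was closer, at 92.3 CPM in the proximal-gene cells against 100.2 CPM in the other control members, and at 126 against 143 CPM in the exposed library. The proximal-gene cells were also deeper, with medians of 8180 and 22093 UMIs against 4440 and 5559 in the others. Their transcripts go against the label. They held 18.8% and 23.5% of all member UMIs, so the comparisons below give values also, or only, for the 92 and 69 members that remain without them.

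**Figure D2:**
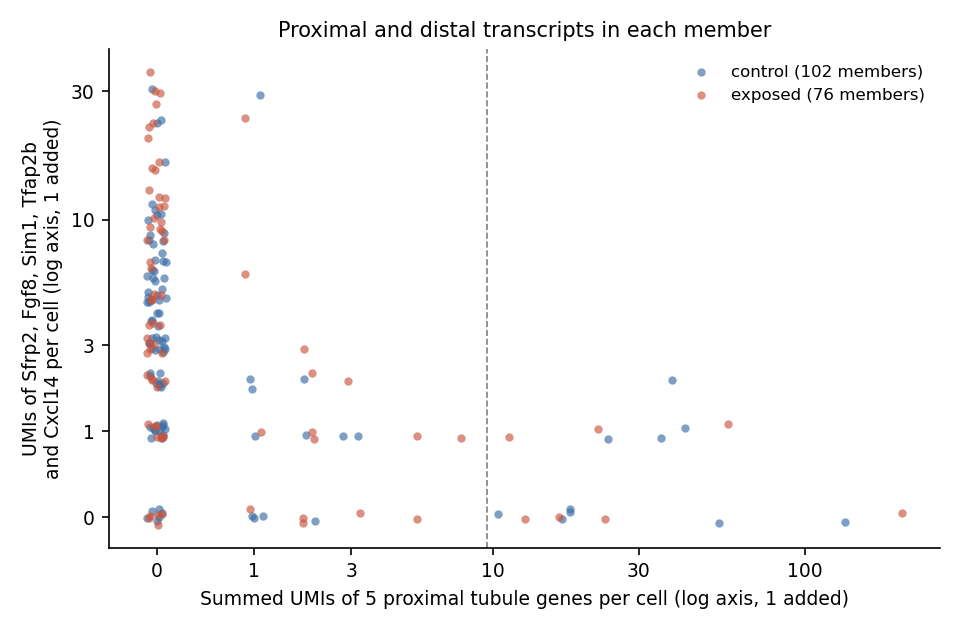
Each point is 1 member; the horizontal axis is its summed UMIs of 5 proximal tubule genes and the vertical axis its summed UMIs of Sfrp2, Fgf8, Sim1, Tfap2b and Cxcl14, both on log axes with 1 added and with small random shifts. The dashed line lies just under 10 proximal UMIs; the 10 control and 7 exposed members to its right sit near the bottom of the plot.

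Markers of other cell types were mostly lower in the remaining members than in other cells. Intercalated cell markers summed to 12.8 and 16.9 CPM, with 9 and 10 of 11 genes at 0, Foxi1 and Atp6v1g3 among them. Erythroid markers summed to 25.6 and 2.42 CPM. Of the collecting duct and ureteric bud list, Aqp2 (by the rule), Wnt9b and Avpr2 were at 0 in both libraries, and the list summed to 343 and 414 CPM against 1063 and 923 CPM in all other cells. Stroma markers summed to 194 and 46.0 CPM, against 1869 and 2430 CPM in other cells, and podocyte markers to 548 and 302 CPM, with Nphs1 and Podxl at 0 in the exposed members. Immune markers summed to 684 CPM in the control because 1 member held 314 of the 321 immune UMIs among its 3697; in the exposed members they summed to 16.9 CPM. Endothelial markers summed to 296 and 184 CPM, with 6 of 13 and 8 of 13 genes at 0, Tie1, Tek and Flt1 among them in both. Nephron progenitor markers summed to 452 and 351 CPM, near the 395 and 378 CPM of other cells, and Six2 was at 0 in the exposed members. Markers of the renal vesicle and pretubular aggregate went the other way, at 1922 and 1896 CPM against 967 and 1117 CPM in other cells. The stroma, podocyte, endothelial and immune sums were thus higher in control than in exposed members.

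Irx2 led the genes that set the remaining members above all other cells, followed by genes of receptors, matrix and secreted proteins. Over all members 72 of 1737 genes (4.15%) were 2-fold or more higher than in other cells in both libraries, some of them proximal genes of the 10 and 7 cells. Irx2 stood at 143 CPM in control and 160 CPM in exposed members, against 14.97 and 14.5 CPM in other cells, a 9.54- and 10.99-fold higher level. Irx2 lies at chr13:72628820-72634198 and Irx1 at chr13:71957921-71963723 (GRCm38), on the same chromosome. Irx2 was detected in 50% and 49.3% of these members. Further transcription factors stood lower among the 20 leading genes: Uncx (313 and 305 CPM, against 79.2 and 83.3), Sox9 (100.2 and 131 CPM, against 24.4 and 24.5), Sox11 (490.1 and 491 CPM, against 177 and 180.3), Foxc1, Hoxb2 and Hoxb8. Uncx is also known from nephron progenitors and Foxc1 from podocytes. A gene was ranked by the lower of its 2 library values, which are a description, since the cells were chosen by their transcripts.

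Genes of receptors and of surface, secreted and matrix proteins were among those next to Irx2. The ephrin receptor Epha4 stood at 217 and 206 CPM against 28.6 and 27.2 CPM in other cells, and Epha7 at 100.2 and 140.3 CPM against 16.1 and 18.2 CPM. Prss23, a secreted serine protease, was 4.78- and 4.91-fold higher, the laminin chain gene Lama1 5.59- and 4.46-fold, and the heparan sulfate enzyme gene Hs3st3b1 4.93- and 5.99-fold. The tight junction genes Cldn6 and Cldn7 were 3.57- and 4.08-fold and 2.95- and 4.67-fold higher. Ccnd1, the cyclin D1 gene of the early nephron, stood at 953 and 819.9 CPM against 210.1 and 247 CPM. The growth factor gene Pdgfa was 3.54- and 2.94-fold higher.

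**Figure D3:**
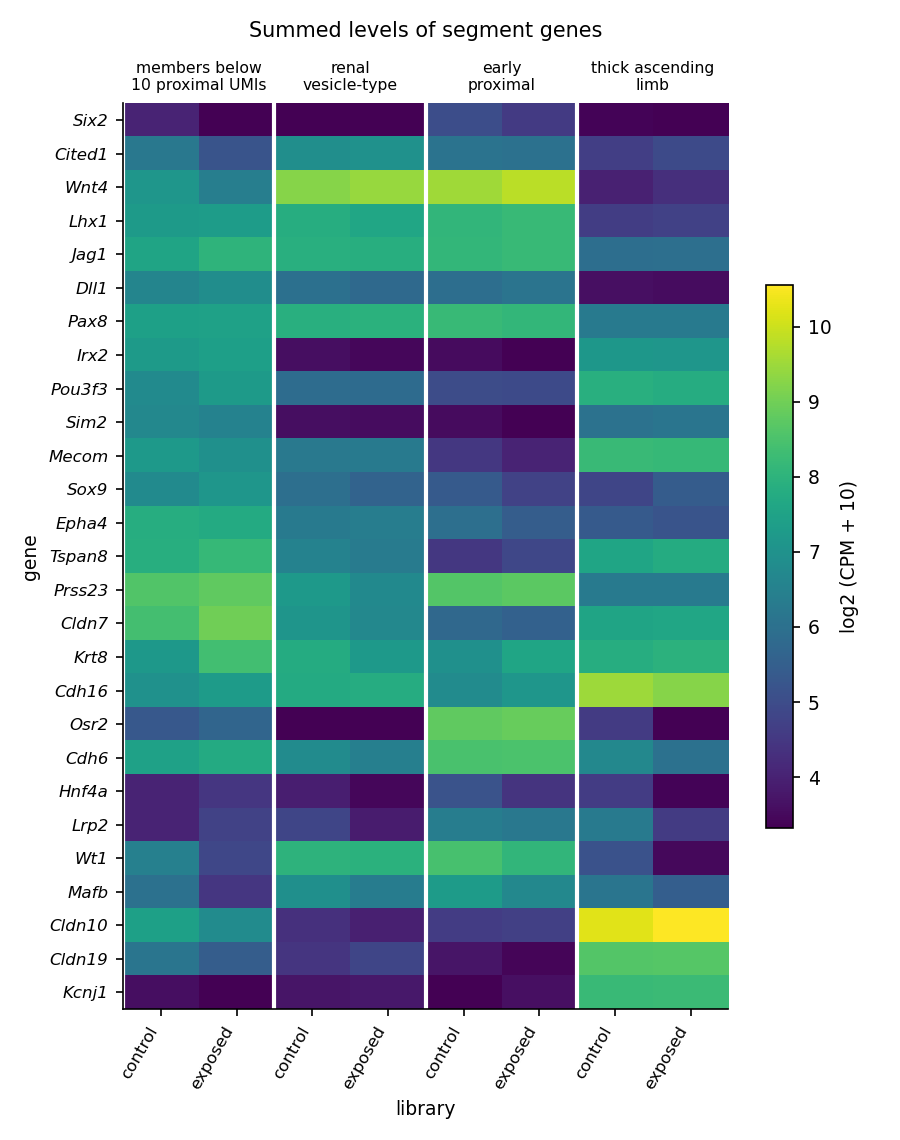
Colour gives log2 of summed CPM with 10 added for genes of the nephron segments (rows) in the 92 control and 69 exposed members below 10 proximal UMIs and in 3 comparison sets, with the control and the exposed library side by side. Irx2 (143 and 160 CPM in members) is near 0 in renal vesicle-type and early proximal cells, and Kcnj1 is near 0 in members and high in thick ascending limb cells. Kcnj1 and Cldn10 helped to choose the limb cells, Wnt4, Lhx1 and Jag1 the vesicle-type cells, and Osr2, Cdh6 and Hnf4a the early proximal cells. Their levels in those sets are a description. So is that of Irx2 in the vesicle-type and early proximal cells, which were chosen with no Irx1 UMI.

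The thick ascending limb is among the segments these cells are known to feed. It was represented by 355 control and 238 exposed cells with 2 or more Slc12a1 UMIs and at least 1 of Umod, Cldn10, Kcnj1, Ppp1r1b and Egf. Kcnj1 and Cldn16, which serve salt and ion transport in the limb, were nearly absent from members. The potassium channel gene Kcnj1 stood at 290.4 and 297 CPM in limb cells, against 1 and 0 member UMIs, and the claudin gene Cldn16 at 109 and 108 CPM, against 0 and 0. Kcnj1 helped to choose the limb cells, while Cldn16 did not. Members were chosen for no Umod and at most 1 Slc12a1 UMI, and limb cells for 2 or more. Both contrasts are therefore a description.

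The heparin-binding growth factor genes Mdk and Ptn ran the other way. They stood at 1241 and 1327 CPM and at 552 and 563 CPM in members, against 63.8 and 78.7 CPM and 29.9 and 44.8 CPM in limb cells. Of 1737 genes with 100 or more member UMIs outside the rule, 208 (12%) were 2-fold or more higher in members than in limb cells in both libraries, and of 6340 genes with 100 or more UMIs over members and limb cells, 428 (6.75%) were 2-fold or more lower. Without the proximal-gene cells, 214 of 1309 (16.3%) were higher and 564 of 6117 (9.22%) lower. Irx2 was close in both, at 132 and 131 CPM in limb cells. Pou3f3 stood at 227 and 212 CPM in limb cells against 100.2 and 143 CPM in the remaining members, and Mecom at 291 and 276 CPM against 141 and 114 CPM. Cldn10, a claudin of the loop, was at 164 and 102 CPM in the remaining members and at 1204 and 1499.7 CPM in limb cells, which it helped to choose.

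Against 185 control and 161 exposed early proximal precursors (Osr2 with at least 1 further early proximal gene, such as Cdh6, Hnf4a or Keg1, and Irx1, Slc34a1 and Slc12a1 at 0), 72 of 1737 genes (4.15%) were 2-fold or more higher in members and 68 of 5048 (1.35%) 2-fold or more lower, in both libraries. Among the remaining members, 21 of 1309 (1.6%) were higher and 80 of 4724 (1.69%) lower. Irx2 had 2 and 0 UMIs in these precursors, a description, since they were chosen with no UMI of the related gene Irx1. Tspan8, a tetraspanin gene, stood at 222 and 278 CPM in the remaining members against 12.6 and 19.2 CPM, and Cldn7 at 326 and 496 against 44.6 and 37.5 CPM. Mecom stood at 141 and 114 against 12.6 and 6.39 CPM. The precursors held more Wnt4, a ligand of the vesicle stage, at 732 and 890.2 CPM against 129.99 and 75.0 CPM. They also held more Wt1, a factor of progenitors and podocytes, at 342 and 261 against 78.8 and 19.3 CPM. Prss23 did not set the groups apart, at 388 and 418 CPM in the precursors against 373 and 438 CPM.

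Renal vesicle-type cells (434 and 321, with Wnt4 and at least 1 of Lhx1, Jag1, Ccnd1 and Bmp2 but no Irx1, Six2, Osr2 or Umod) were compared in the same way. Of 1737 genes 113 (6.51%) were 2-fold or more higher in members in both libraries, and of 6688 genes 155 (2.32%) were 2-fold or more lower. Among the remaining members, 27 of 1309 (2.06%) were higher and 146 of 6489 (2.25%) lower, and proximal genes that led the first count dropped, such as Napsa, from log2 ratios of 3.74 to 0.02 in the control. Lhx1 stood at 216 and 186 CPM in the vesicle-type cells and at 145 and 149.9 CPM in the remaining members. Jag1, a Notch ligand, stood at 226 and 220.4 against 179 and 249 CPM. Both genes helped to choose the vesicle-type cells, so these levels are a description. Pax8, a factor of all nephron epithelium, stood at 227 and 239 against 162 and 167 CPM. Sim2 and Irx2 were at or below 1.98 CPM in these cells, which were chosen with no Irx1 UMI, so this too is a description. That set also held collecting duct transcripts, with Aqp2 at 1128 and 1001 CPM and the sodium pump regulator Fxyd4 at 324 and 313 CPM, so it is not a pure vesicle population. Fxyd4 had 1 UMI in the control members and 0 in the exposed.

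The remaining members were not uniform. Sfrp2 or Fgf8 was detected in 67 of 92 control and 50 of 69 exposed members, and neither in 25 and 19. This split was chosen after the data had been seen, because an earlier one that also used Wfdc2 and Slc12a1 left 5 early members in each library. Depth was alike in the control (medians 4467 and 4344 UMIs) and higher with Sfrp2 or Fgf8 in the exposed library (5568.5 and 4747 UMIs). Median mitochondrial shares were 5.33% and 6.73% in the control and 4.60% and 5.65% in the exposed library. Of 1309 genes tested, 9 (0.688%) were 2-fold or more higher without Sfrp2 and Fgf8 in both libraries, and 11 (0.84%) were 2-fold or more lower.

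Lhx1, Sox11, Epha4 and Wnt4 were lower in the members without Sfrp2 and Fgf8. Lhx1 stood at 35.7 CPM in them against 179 CPM in the control, and at 48.7 against 183 CPM in the exposed library. Sox11, a factor of immature cells, stood at 152 against 596 CPM and at 166 against 598 CPM. Epha4 stood at 116 against 249 CPM and at 48.7 against 257 CPM. Wnt4 had 2 and 1 UMIs in the members without Sfrp2 and Fgf8 against 59 and 30 in the others. The ranking asked for 1 direction in both libraries. Under the split planned first, with 5 early members per library and proximal-gene cells kept, Lhx1 stood at a log2 ratio of 0.20 in the exposed library.

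Cdh16, Npnt and Fxyd2 were higher in the same cells. The control group without Sfrp2 and Fgf8 holds the 1 member with 314 immune UMIs, and these genes kept their direction without it. Npnt, a matrix ligand of kidney epithelium, stood at 259 against 53.2 CPM and at 370.1 against 45.0 CPM. 1 cell held 24 of its 29 UMIs in the control and 1 cell 26 of its 38 in the exposed library, and the split planned first put it at -0.27 in the control. Cdh16, the kidney-specific cadherin, stood at 223 against 84.0 CPM and at 253 against 113 CPM. Fxyd2, the regulatory subunit of the sodium pump, stood at 1170.1 against 207 CPM and at 487 against 164 CPM. Spp1, which encodes osteopontin, had 84 and 41 UMIs in these members, but in 4 cells and in 1 cell, and 0 and 2 in the others. All 6 junction genes tested were higher in both libraries, with medians of 0.51 and 0.93 on the log2 scale, and all 10 immediate early genes, with medians of 1.00 and 0.51, beside medians of -0.13 and -0.03 over all genes tested. Of 6 S phase genes 5 were lower in both libraries. G2/M phase genes ran opposite ways, with medians of -0.65 and 0.33, as did heat shock genes, at 0.35 and -0.38.

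**Figure D4:**
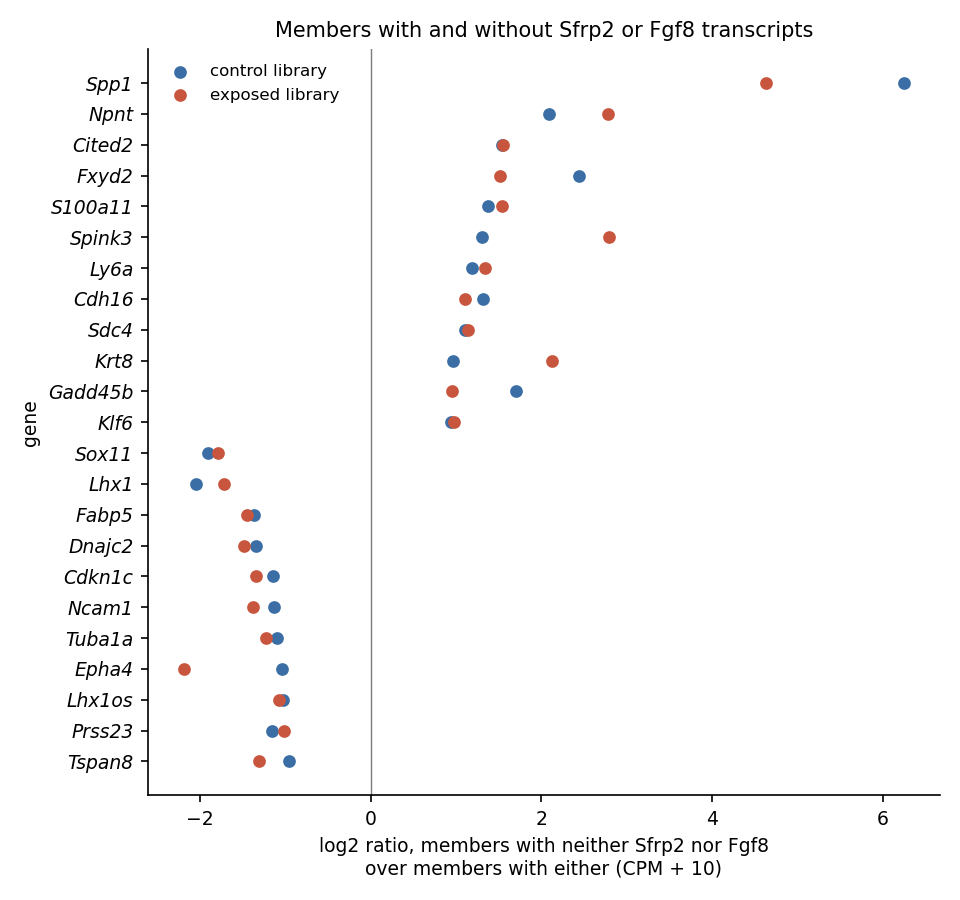
Log2 ratio of summed CPM (10 CPM added) between members with neither Sfrp2 nor Fgf8 and members with either, for genes at each end of the ranking (vertical axis), with 1 point for each library. Every gene lies on the same side of 0 in both libraries, because genes were ranked by the weaker of the 2 values; Lhx1 stood at -2.05 in control and -1.72 in exposed members.

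Between the groups, the share of members did not differ beyond counting error. They made up 1.12% of control cells (0.918 to 1.36) and 1.38% of exposed cells (1.09 to 1.73), a difference of 0.259 percentage points (-0.106 to 0.656, 95% Newcombe interval). Without the proximal-gene cells the shares were 1.01% and 1.26%. When every cell was thinned to 2000 UMIs before the rule was applied, they were 0.949% and 0.947%. Of the rule genes, Irx1 stood at 454 and 394 CPM, Wfdc2 at 817 and 755, Epcam at 990.3 and 1077 and Sim1 at 93.5 and 88.9. Tfap2b stood at 97.0 and 68.5 CPM (0.706, 0.453 to 1.09), Fgf8 at 106 and 72.2 (0.684, 0.445 to 1.04) and Cxcl14 at 48.5 and 68.5. Sfrp2 stood at 403 and 602 CPM, a ratio of exposed over control of 1.49 (1.26 to 1.77, exact conditional binomial interval for counting error, which leaves out the spread between cells).

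Transcripts of dividing cells were common in members. Of control members 80.4% and of exposed members 78.9% held 2 or more UMIs of 30 G2/M phase genes, a difference of -1.44 points (-13.8 to 10.2). Thinned to 2000 UMIs, the shares were 54.3% and 49.3%, against 43.8% and 43.9% of endothelial reference cells and 23.8% and 34.2% of thick ascending limb cells. Early proximal precursors stood higher, at 68.0% and 60%, as did renal vesicle-type cells, at 66.7% and 69.3%. The counts do not tell dividing cells from cells with free RNA of these genes.

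Gene by gene, the exposed and control members were close. Of 1737 genes tested, those with 100 or more UMIs over the members of both libraries and outside the rule, 41 (2.36%) were past 1.5-fold higher in the exposed members and 31 (1.78%) past 1.5-fold lower, together 72 (4.15%), by log2 ratios with 10 CPM added, and the median ratio was 0.01. Without the proximal-gene cells, 31 of 1309 (2.37%) were higher and 23 (1.76%) lower. No p-value can be given, and the intervals below cover counting error only.

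Simple-epithelium keratins and stress-linked transcription factors were among the 12 genes highest in exposed members. Lbp, which encodes the lipopolysaccharide-binding protein, was detected in 26.5% of control and 63.2% of exposed members, at 79.6 and 213 CPM, a ratio of 2.67 (1.88 to 3.85). The AP-1 subunit gene Jun stood at 739 and 1635 CPM (2.21, 1.97 to 2.49), and Klf6, a zinc-finger factor gene, at 116 and 276 CPM (2.38, 1.77 to 3.22). Krt8 and Krt18 encode the paired keratins of simple epithelium and lie at chr15:101996698-102004482 and chr15:102028180-102032027. Krt8 stood at 234 and 435 CPM (1.86, 1.5 to 2.32) and Krt18 at 100.4 and 222 CPM (2.21, 1.60 to 3.08). All 5 stayed past 1.5-fold without the proximal-gene cells, at ratios of 2.58 for Lbp, 1.95 for Jun, 1.83 for Klf6, 2.36 for Krt8 and 2.37 for Krt18. The keratins rested on members with few partner genes: among members with 3 or more, the log2 ratio was 0.37 for Krt8 and 0.11 for Krt18, below 1.5-fold. Klf6 stood at a log2 ratio of 0.46 when every cell weighed the same.

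The same genes were nearer to even between the libraries in other cells. They were named for their high ratios in the members, so lower ratios elsewhere can follow from that choice alone. Over all other cells the log2 ratio was 0.18 for Lbp, 0.47 for Jun, 0.23 for Klf6, -0.02 for Krt8 and -0.08 for Krt18. In the members it was 1.31, 1.13, 1.18, 0.87 and 1.07. In early proximal precursors Krt8 stood at 0.62 and Krt18 at 0.51, and in renal vesicle-type cells at -0.51 and -0.73. Jun was higher in exposed cells of each set, at 0.42 in early proximal, 0.57 in renal vesicle-type and 0.61 in thick ascending limb cells. The difference between cell types could not be tested with 1 library per group.

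Sparc, a matrix protein gene of stroma, podocytes and early nephrons, was lowest among the genes that kept their direction. It stood at 163 CPM in control and 77.8 CPM in exposed members, a ratio of 0.478 (0.324 to 0.694), and at 198 and 77.4 CPM without the proximal-gene cells. Detection of Sparc ran the other way, in 27.5% of control and 32.9% of exposed members. Among members with 2 or more Irx1 UMIs the log2 ratio was -0.09. Stroma markers summed to 168 and 40.7 CPM and podocyte markers to 511 and 261 CPM in the same members, and their part in this difference was not tested. Cdkn1c, a cell cycle inhibitor gene, stood at 194 and 111 CPM (0.573, 0.411 to 0.791), but was detected in 36.3% of control and 42.1% of exposed members. Without the 5 members with most Cdkn1c UMIs in each library, its log2 ratio was -0.19. The centromeric histone gene Cenpa stood at 211 and 118 CPM (0.561, 0.408 to 0.765), the cohesin gene Rad21 at 154 and 87.0 CPM, and the aldose reductase gene Akr1b3 at 119 and 62.9 CPM. Akr1b3 stood at a log2 ratio of 0.08 among members with 3 or more partner genes.

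Genes of the proximal tubule filled several further places and turned with the cells that carried them. Slc34a1 stood at 95.2 CPM in control and 218 CPM in exposed members, but 1 exposed member held 90 of the 118 UMIs, and the log2 ratio went from 1.12 to -0.21 without the proximal-gene cells. Ttr, Fbp1, Anpep and Aadat were lower in the exposed members (log2 ratios of -1.07, -0.89, -0.76 and -0.71) and higher in them without the proximal-gene cells (1.66, 0.51, 0.83 and 0.81). In the remaining members they stood at 2.13 to 75.0 CPM. The direction of these genes was thus set by 10 control and 7 exposed cells.

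**Figure D5:**
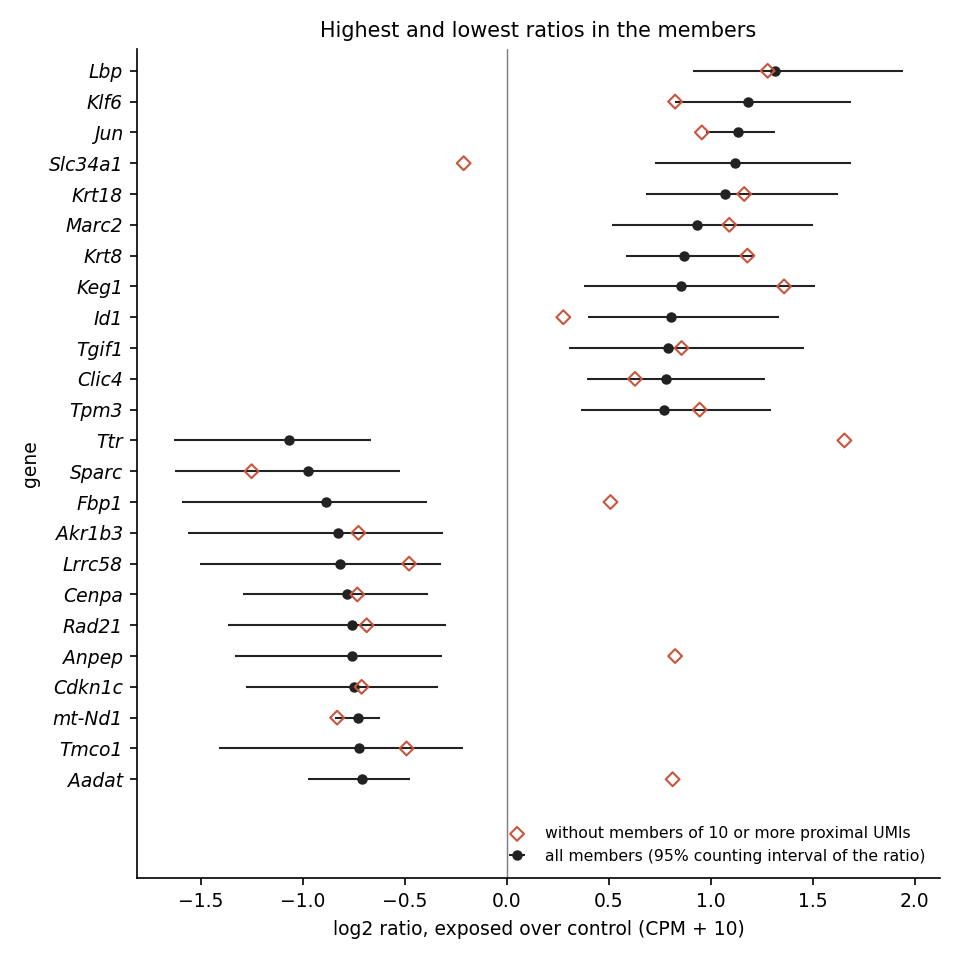
Log2 ratio of exposed over control CPM (10 CPM added) for the 12 highest and 12 lowest genes in the members (vertical axis). Black points are all members with the 95% counting interval of the ratio, and open diamonds are members below 10 proximal UMIs; the diamonds of Slc34a1, Ttr, Fbp1, Anpep and Aadat lie on the other side of 0, while those of Lbp, Jun, Krt8, Krt18 and Sparc stay on the same side.

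Distal patterning genes were near even between the groups. Of the 26 genes of the list, 8 outside the rule reached 100 UMIs, 4 were higher and 4 lower in the exposed members, and the median log2 ratio was 0.00 beside 0.01 over all genes tested, with 0 past 1.5-fold. In the remaining members, 5 of 6 tested were higher and 1 lower, with a median of 0.10 beside 0.03 and again 0 past 1.5-fold. Pou3f3 stood at 98.7 and 139 CPM (1.41, 0.984 to 2.02), Mecom at 114 and 87.0 CPM (0.761, 0.512 to 1.12), Irx2 at 125 and 126 CPM, and Lhx1 at 121 and 120.3 CPM. For each of these the counting interval of the ratio included 1.

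Epithelial junction genes leaned higher in exposed members. Of 7 tested, 6 were higher and 3 past 1.5-fold (Krt8, Krt18 and Cldn7), with a median of 0.28, and of 6 tested without the proximal-gene cells all were higher, with a median of 0.45. Cldn7 stood at 308 and 476 CPM (1.54, 1.27 to 1.88). Crb3, a polarity gene, was the exception at 118 and 90.7 CPM. In early proximal precursors the median of the 7 genes was 0.26, near that of the members. It was -0.02 in all other cells, 0.06 in thick ascending limb cells and -0.33 in renal vesicle-type cells.

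Immediate early genes leaned the same way in the members and in other cells. All 10 tested were higher in the exposed members, 4 past 1.5-fold (Klf6, Jun, Cyr61 and Egr1), with a median of 0.48. Over all other cells the median of the same genes was 0.34, in thick ascending limb cells 0.71 and in renal vesicle-type cells 0.42. Without the proximal-gene cells it was 0.37, and Fosb was lower, at 158 and 135 CPM. Fos stood at 676 and 679.6 CPM in those members. Heat shock genes had a median of 0.25 in the members and 0.23 in all other cells.

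Mitochondrially encoded genes were lower in exposed members, all 12 of 12 tested, with a median of -0.48 and 3 past 1.5-fold, or 5 past 1.5-fold without the proximal-gene cells. Mt-Nd1, a subunit gene of complex I, stood at 3113 and 1873 CPM, and mt-Co1 at 8103 and 5979.6 CPM. The median was -0.43 in all other cells, -0.18 in early proximal precursors, -0.17 in renal vesicle-type cells and 0.01 in thick ascending limb cells. It was -0.23 in members without those above 25% mitochondrial UMIs. Nuclear genes of oxidative phosphorylation had a median of -0.12, with 27 of 39 lower and 0 past 1.5-fold. Cytosolic ribosomal protein genes had a median of 0.11 in the members and 0.14 in all other cells.

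Of 10 G2/M phase genes tested, 9 were lower in exposed members, 2 past 1.5-fold (Cenpa and Cenpf), with a median of -0.20. In the remaining members 8 of 10 were lower and 1 past 1.5-fold. Cenpf stood at 164 and 102 CPM, while Top2a stood at 142 and 137 CPM and Cdk1 at 128 and 129.6 CPM. Over all other cells the median was 0.04, and in thick ascending limb cells 0.84. For 7 S phase genes the median was 0.15, with 4 higher and 3 lower.

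Signalling genes of the early nephron were mostly below 100 UMIs. Among Notch genes, Jag1 stood at 168 and 224 CPM (1.33, 1.01 to 1.76) and the target Hes1 at 502 and 633 CPM (1.26, 1.08 to 1.48), both below 1.5-fold, while the ligand gene Dll1 had 42 and 49 UMIs. Among FGF feedback genes, Spry1 stood at 98.7 and 174 CPM (1.76, 1.26 to 2.50) and Etv5 had 11 and 25 UMIs, while the related target Etv4 had 44 and 32 and Fgf8 itself 61 and 39. Of the BMP-responsive genes, Id1 stood at 109 and 198 CPM, Id2 at 184 and 283, Id3 at 563 and 691, and Id4 at 104 and 81.5. Id1 dropped to a log2 ratio of 0.28 without the proximal-gene cells. The FGF and the BMP-responsive genes thus each held members of both directions.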

How the data were processed

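Single-cell RNA libraries of whole kidney, 1 control and 1 exposed, were made with the 10x Chromium 3' kit from trypsin-dissociated, filtered and frozen cells, per the labels' protocols. Cell Ranger 2.2.0 and mm10 (GRCm38) are named in the submitters' processing notes. The authors deposited UMI counts per gene and cell, with no normalization. The authors deposited for each cell, per the file headers, its total UMI count, detected genes, percent of mitochondrial UMIs, doublet score and cluster number. How cells and genes were filtered is not stated in these sources.

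The members, the gene lists and the tests were chosen with earlier results of these data known. Symbols were matched to GENCODE M21 (9839 of 10205), which gave names and coordinates. UMIs were summed over the members of each library and scaled to CPM over the 8930 shared genes. Log2 ratios add 10 CPM to each side, which understates the change of low genes. Genes outside the rule with 100 or more UMIs over both libraries were tested. The genes named are the 12 highest and 12 lowest ratios among those detected in 10% of members of a library, the leading genes over each comparison set and, as examples, members of 30 lists. The 20 leading genes over all other cells are given without the proximal-gene cells, a choice made after seeing the data. A list was summarised where 5 or more of its genes were tested. With 1 library per group there is no replicate, no p-value and no standard error. Intervals are at 95%, cover counting error only and treat each UMI as independent, so they are too narrow for a gene held by few cells. A count of 0 is read with a floor of 3 counts. For shares of cells, thinned values used 2000 UMIs per cell. Doublets were handled by the authors' score alone. Ratio and interval code was tested on simulated data. Python 3.11.15, numpy 2.4.6, pandas 2.3.3, scipy 1.17.1 and matplotlib 3.10.9 were used. A few genes of these lists and rules are not reported here.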

Additional observations from a re-analysis of the deposited data

Results flagged for a closer look

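Genes listed for 1 library only took no part in any comparison, although members held UMIs of them. In the control members 3733 UMIs (0.642% of their UMIs) fell in the 660 genes listed for the control library only, led by 1810044D09Rik with 23 UMIs, Nme7 with 20 and Klc1 with 20. In the exposed members 3038 UMIs (0.559%) fell in 615 genes listed for the exposed library only, led by Kdf1 with 24, Esco1 with 19 and Polr1a with 17. The rule behind these lists of genes is not stated, so their absence from the other table is no measurement of their level.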

How the results depend on the processing

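No paired analysis was possible because each group has 1 library. The cause of the shifts below was not tested unless stated. Settings that leave out cells with proximal genes or with most UMIs, allow only the authors' main cluster, or use Epcam-positive cells were chosen after seeing the data. The difference in share was 0.887 points among cells with Epcam. The count of genes past 1.5-fold higher (41) became 139 with 50 UMIs in place of 100, 558 with no filter, 15 with 50 CPM added, 119 with doublet-scored cells kept, 26 with 3 or more partner genes and 6 after thinning. The count lower (31) became 113, 605, 16 and 52 under the first 4 of these, 48 with Irx1 at 2 or more UMIs and 12 after thinning, where fewer UMIs leave fewer genes to test. The count of genes higher than in other cells (72) became 39 without proximal-gene cells, 208 against thick ascending limb and 113 against renal vesicle-type cells. The number of genes tested changed with the UMI minimum and the members used, from 1737 to 1309 without proximal-gene cells. The counts are therefore not all shares of the same total.

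The median of G2/M genes was -0.59 with doublet-scored cells kept. That of immediate early genes was 0.31 with cells weighted the same, 0.25 with doublet-scored cells kept, 0.94 with Irx1 at 2 or more UMIs, 0.18 after thinning and 0.37 without proximal-gene cells. That of mitochondrially encoded genes was -0.52 with these genes left out of the total, -0.55 with cells weighted the same, -0.35 with doublet-scored cells kept, -0.23 without cells above 25% mitochondrial UMIs, -0.45 with Irx1 at 2 or more, -0.70 with 3 or more partner genes, -0.35 with Slc12a1 at 0, -0.42 after thinning, -0.56 without proximal-gene cells, -0.54 without the member with most UMIs of each library and -0.41 in the authors' main cluster.

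Of the log2 ratios of single genes under all settings, 339 moved little, 46 moved further and 23 changed sign. Slc34a1 was at -0.10 with cells weighted the same, -1.30 with Irx1 at 2 or more, -0.72 with 3 or more partner genes, -0.21 without proximal-gene cells, -0.60 without the deepest members and -1.20 without the 5 members with most of its UMIs. With 3 or more partner genes, Keg1 was at -0.25, Id1 at -0.15 and Akr1b3 at 0.085, and after thinning Keg1 was at -0.077 and Tmco1 at 0.023. With doublet-scored cells kept, Fbp1 was at 0.25, Anpep at 0.010 and Aadat at 0.14. Without proximal-gene cells, Ttr was at 1.66, Fbp1 at 0.51, Anpep at 0.83 and Aadat at 0.81. In the main cluster, Ttr was at 0.40, Fbp1 at 1.00, Anpep at 0.70 and Aadat at 1.64, and without the 5 members with most of its UMIs Anpep was at 0.029. The early and late split first planned had 5 early members per library, and its late members included proximal-gene cells. It gave 50 genes higher and 10 lower in late members. The split by Sfrp2 and Fgf8, made without proximal-gene cells, gave 9 and 11, so the counts are not of like cells. Leaving out the member with most immune UMIs of each library gave 10 higher and 10 lower. Genes under 100 UMIs and differences in share below the intervals given could not be resolved at this depth, and 1 library per group gives no measure of the spread between animals.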
